A study of Mus musculus with 10 samples.

Results

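A set of 9 genes that mark the path from pro-B cell to mature B cell was followed in osteocyte preparations from 10 mice. They were taken by gene name from the 22548 genes of the deposited read count table, and all 9 passed the filter on low counts that left 16186 genes for testing. The precursor genes were Rag1, Dntt, Vpreb1 and Igll1, the B identity genes were Pax5, Ebf1 and Cd79a, and the mature genes were Ms4a1 and Cd22. Osteocytes, the cells embedded in bone matrix, had been isolated from C57BL/6 mice labelled male and 8 weeks old, with 1 RNA-seq library per mouse. The 5 MM mice (mice 6 to 10) carried vk12598 cells, a murine myeloma line injected into the femur, and the 5 No MM mice (mice 1 to 5) were controls that received no myeloma cells. The authors' methods name mice of 6 to 8 weeks and PBS injection for controls, and their results place the bone lesions 6 weeks after injection. Whether the labelled age is that at injection or at harvest is not given. Marrow had been removed and the bone fragments digested repeatedly with collagenase before RNA was taken. From bulk counts, B-lineage reads of host cells and of the injected line cannot be told apart.

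B cells form in the marrow by rearranging their immunoglobulin genes, first the heavy chain in pro-B cells and then the light chain in pre-B cells. Rag1 cuts the DNA for this rearrangement, Dntt adds untemplated bases at the joints, and Vpreb1 and Igll1 together form the surrogate light chain that pairs with a new heavy chain before a true light chain exists. These 4 genes are shut down as the cell matures, while Pax5 and Ebf1, the transcription factors that set B-cell identity, and Cd79a, a signaling chain of the B-cell receptor, stay on. Ms4a1, which encodes CD20, and Cd22, an inhibitory receptor that binds sialic acid, mark later stages, and plasma cells lose Pax5 and much of the B-cell surface.

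The promoters of Igll1, Vpreb1 and Cd22 are shown because the first pair varied together most tightly among the 9 genes and Cd22 had the lowest p-value between groups. Each runs from 250 bases before to 50 bases after a RefSeq start (GRCm38.p6, minus strand, 5′ to 3′), and the capitals mark the E-box CAGGTG, read on either strand, to which E2A, a factor of early B-cell genes, binds. The Igll1 sequence lies at chr16:16863936-16864235, that of Vpreb1 at chr16:16869206-16869505 and that of Cd22 at chr7:30878979-30879278.
Igll1: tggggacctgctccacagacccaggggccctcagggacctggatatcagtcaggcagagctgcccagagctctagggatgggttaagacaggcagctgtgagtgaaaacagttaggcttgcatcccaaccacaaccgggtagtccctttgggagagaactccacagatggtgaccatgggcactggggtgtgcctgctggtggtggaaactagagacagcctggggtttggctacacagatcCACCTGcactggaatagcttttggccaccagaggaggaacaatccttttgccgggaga
Vpreb1: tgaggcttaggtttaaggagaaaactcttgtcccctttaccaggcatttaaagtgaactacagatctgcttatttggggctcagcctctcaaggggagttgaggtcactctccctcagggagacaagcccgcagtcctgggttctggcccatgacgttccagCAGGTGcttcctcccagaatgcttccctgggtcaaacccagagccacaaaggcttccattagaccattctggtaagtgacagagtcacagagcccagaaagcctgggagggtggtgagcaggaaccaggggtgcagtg
Cd22: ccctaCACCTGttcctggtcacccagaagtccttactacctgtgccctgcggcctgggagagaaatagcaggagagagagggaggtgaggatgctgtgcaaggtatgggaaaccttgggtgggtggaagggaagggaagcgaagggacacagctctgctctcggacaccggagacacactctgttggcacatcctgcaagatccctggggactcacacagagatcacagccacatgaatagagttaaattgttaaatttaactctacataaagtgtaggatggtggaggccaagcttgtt
The E-box stood at bases -8 to -3 of Igll1, -88 to -83 of Vpreb1 and -245 to -240 of Cd22, counted from the start. It was found in 5 of the 8 genes with a promoter entry (Rag1, Cd79a, Cd22, Igll1 and Vpreb1), against 20.2% of 32851 mouse promoters of the same length. An EBF1 core, TCCCNNGGG on either strand, was found in Cd22 alone of the 8, against 6.56% of all promoters. The Ikaros core TGGGAA was found in Rag1, Cd22 and Ebf1, against 25.6% of all promoters. The EBF1 core matched both strands of Cd22 at bases -49 to -40, and no match of one motif overlapped that of another in the members. These are matches of letters and do not show binding.

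The 10 libraries held 31099174 to 39466332 reads on genes, so that 3 reads amounted to 0.0709 to 0.114 counts per 1000000 scaled reads (CPM), a limit that covers counting error only. All 8 osteocyte and osteoblast markers were detected in every library, with Dmp1, a matrix protein gene of osteocytes, between 112 and 885 CPM, but neutrophil markers were present as well, with summed levels of 6977 to 32300 CPM. No MM 3 and No MM 4 stood apart. Immunoglobulin genes took 26.8% (95% Wilson interval 26.83 to 26.86) and 29.3% (29.26 to 29.29) of their reads, against 0.648 to 3.98% in the other 8 libraries, and Irf4, a plasma cell factor, stood at 1007 and 760.5 CPM against 16.9 to 40.7. Their 9 plasma cell markers summed to 4534 and 4338 CPM against 391 to 747, while their osteocyte markers summed to 1635 and 1017 CPM against 6277 to 21060. Both are labelled as mice without myeloma, and the fitted values of the members are given with and without them. All mice are labelled male. However, 7 libraries (No MM 1 to 4 and MM 6 to 8) held 0 to 47 reads on 4 Y-linked genes. The other 3 (No MM 5, MM 9 and MM 10) held 5157 to 6766. The X-linked gene Xist had 951 to 30370 reads in the 7 libraries and 14 to 225 in the 3. The authors' methods name male or female mice, and the sex of each mouse was not tested.

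The precursor genes were present in both groups, and none of their differences between groups passed the test across all genes. Their levels were very low in No MM 3 and, apart from Rag1 and Dntt, in No MM 4, and MM 6 was the lowest of the remaining 8 libraries for all 4.

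Rag1, the recombinase subunit, stood at 8.76, 17.9, 0.194, 2.61 and 20.8 CPM in No MM mice 1 to 5. In MM mice 6 to 10 it stood at 2.41, 7.11, 7.63, 21.1 and 25.1 CPM. The groups overlapped, and No MM 3, with 6 reads, was the lowest library. The fitted log2 fold change (MM over No MM) was 0.33 ± 0.92 (SE, adjusted p = 0.889, edgeR), with means of 10.05 ± 9.09 and 12.7 ± 9.84 CPM (SD, n = 5 each). Rag1 shares its strand and exon sequence with B230118H07Rik in the annotation, so reads of this pair may have been split in counting.

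Dntt, the terminal transferase, stood at 25.7, 16.6, 0.808, 9.98 and 27.6 CPM in No MM mice. In MM mice it stood at 4.04, 14.7, 8.81, 23.5 and 21.8 CPM. The groups overlapped, the level in No MM 4 lay within the MM range, and MM 6 was lower than every library except No MM 3. The log2 fold change was -0.15 ± 0.72 (adjusted p = 0.938, edgeR).

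Vpreb1 stood at 11.4, 8.19, 0.162, 0.399 and 11.2 CPM in No MM mice and at 1.09, 4.97, 2.20, 15.0 and 9.91 CPM in MM mice. Igll1, its partner in the surrogate light chain, stood at 13.8, 12.9, 0.162, 0.254 and 20.3 CPM in No MM mice and at 1.63, 5.84, 3.95, 22.5 and 15.9 CPM in MM mice. For both genes No MM 3 and 4 held 5 to 11 reads, MM 6 to 8 lay below No MM 1, 2 and 5, and MM 9 and 10 lay among or near those 3. The log2 fold changes were 0.08 ± 1.02 for Vpreb1 and 0.07 ± 1.09 for Igll1 (adjusted p = 0.979 and 0.983, edgeR). Vpreb1 and its near copy Vpreb2 shared 133 of 691 possible stretches of 76 bases, the read length. A read end in such a stretch fits both genes. Pairs whose other end lies elsewhere may still be assigned, and the part that cannot be was not counted. Vpreb2 had 0 to 48 reads per library.

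**Figure D1:**
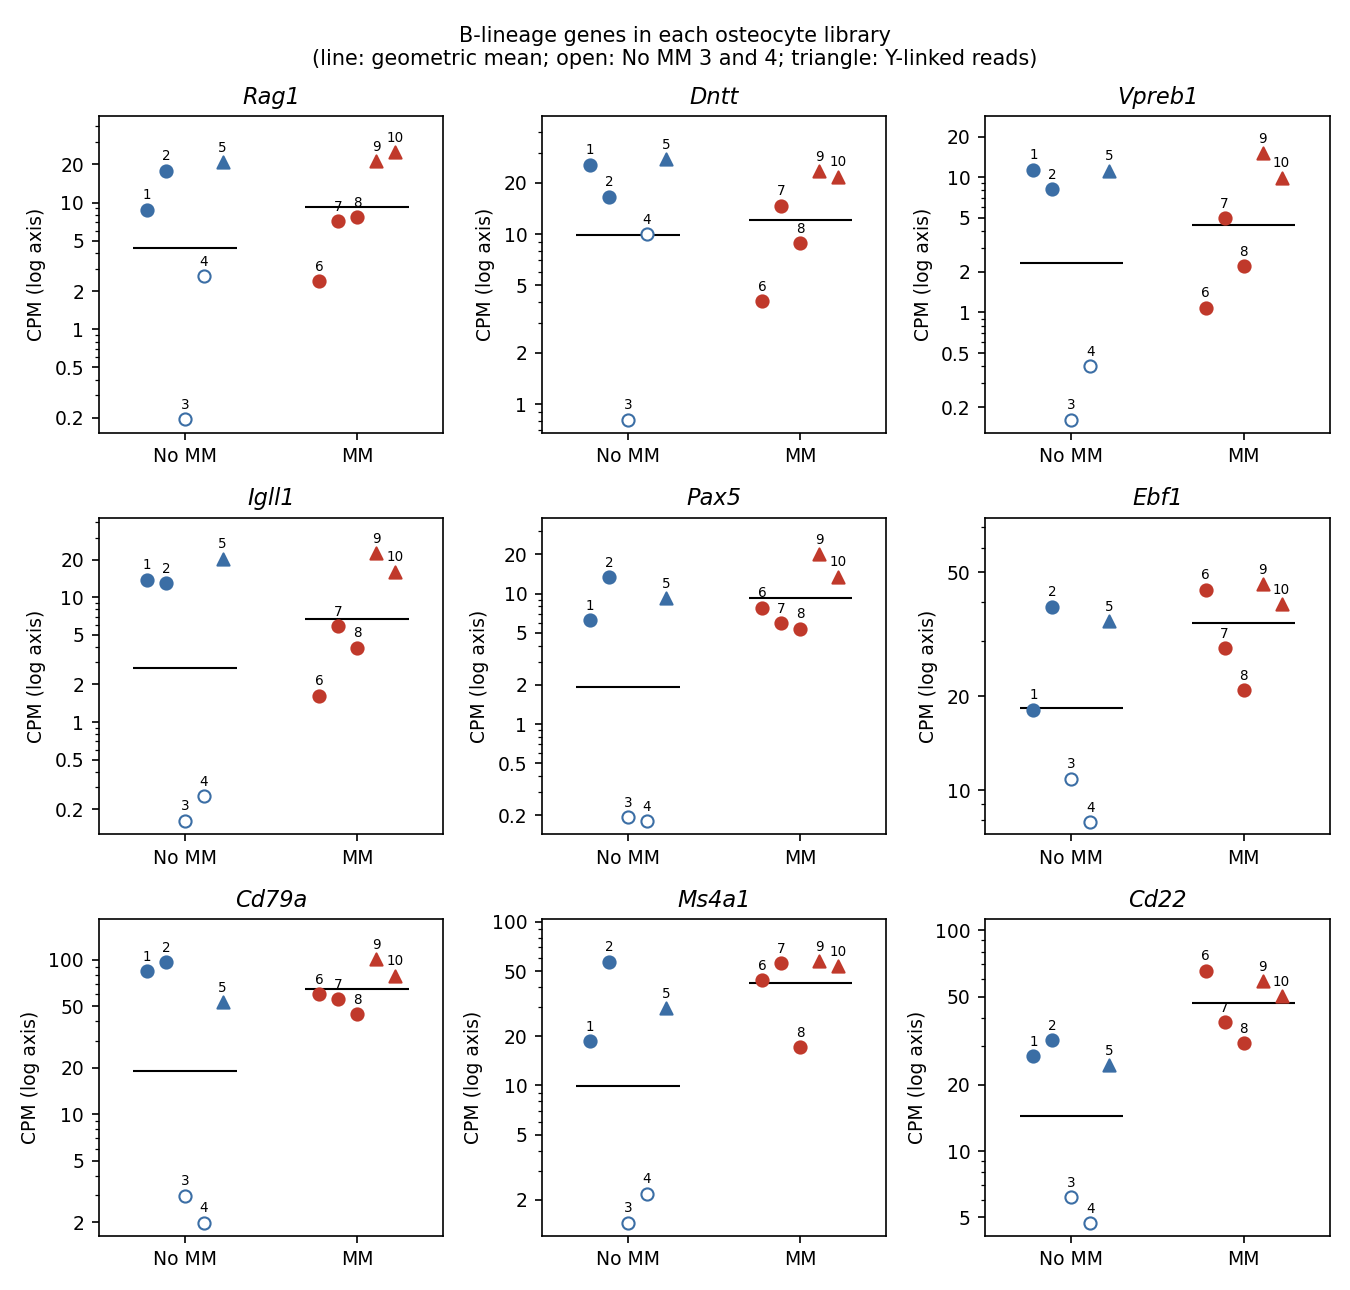
CPM of each of the 9 genes on a log axis, 1 point per mouse with its number, No MM in blue and MM in red. Horizontal lines are geometric means, open points are No MM 3 and 4, and triangles are the 3 libraries with Y-linked reads. No MM 3 and 4 lie lowest for Vpreb1, Igll1, Pax5, Ebf1, Cd79a, Ms4a1 and Cd22, and the groups overlap for every gene.

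The B identity genes were detected in every library and, apart from No MM 3 and 4, varied less than the precursors. Pax5, which holds cells in the B lineage, stood at 6.28, 13.3, 0.194, 0.181 and 9.24 CPM in No MM mice and at 7.81, 5.92, 5.39, 20.1 and 13.5 CPM in MM mice. It had 6 and 5 reads in No MM 3 and 4, where Ebf1, which acts upstream of it, still had 337 and 217. The log2 fold change of Pax5 was 0.85 ± 0.95 (adjusted p = 0.695, edgeR).

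Ebf1 stood at 18.1, 38.8, 10.9, 7.88 and 34.9 CPM in No MM mice and at 43.9, 28.5, 20.9, 45.7 and 39.4 CPM in MM mice. Each MM library lay above No MM 1, 3 and 4, and the groups overlapped through No MM 2 and 5. Its log2 fold change was 0.69 ± 0.43 (adjusted p = 0.472, edgeR). Ebf1 is also expressed outside the B lineage, in fat and bone stromal cells, and the bulk libraries do not separate these sources.

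Cd79a stood at 84.2, 96.3, 2.97, 2.00 and 53.3 CPM in No MM mice and at 59.7, 55.7, 44.6, 100.5 and 78.9 CPM in MM mice. Its levels in No MM 1, 2 and 5 spanned most of the MM range. The log2 fold change was 0.51 ± 0.85 (adjusted p = 0.806, edgeR). Without No MM 3 and 4 it was -0.22 ± 0.29, so its sign rested on those libraries.

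The mature genes had the largest fitted differences of the 9, both toward higher levels in MM. Ms4a1 stood at 18.6, 57.0, 1.45, 2.18 and 29.6 CPM in No MM mice and at 44.1, 56.0, 17.1, 57.6 and 53.7 CPM in MM mice. In MM, 4 libraries lay between 44.1 and 57.6 CPM, a range that only No MM 2 reached among controls, and MM 8 lay below No MM 1. The log2 fold change of Ms4a1 was 1.07 ± 0.82 (adjusted p = 0.554, edgeR).

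Cd22 stood at 26.8, 31.8, 6.17, 4.72 and 24.5 CPM in No MM mice and at 65.7, 38.2, 30.9, 58.8 and 50.2 CPM in MM mice. Only MM 8 and No MM 2 crossed, at 30.9 and 31.8 CPM, and the other 4 MM libraries lay above every control. The mean was 48.8 ± 14.3 CPM in MM and 18.8 ± 12.5 in No MM (SD, n = 5 each). The fitted fold was 2.59, a log2 fold change of 1.37 ± 0.50 (unadjusted p = 0.0192, edgeR). It did not pass adjustment over all genes (adjusted p = 0.3145, edgeR), and DESeq2 gave an adjusted p of 0.129. The exact permutation test over all assignments of the 10 mice to groups gave p = 0.0159, two-sided, where 0.00794 was the smallest it can give. Without No MM 3 and 4 the fold was 1.74 (log2 0.80 ± 0.26, unadjusted p = 0.0130, adjusted p = 0.6435, edgeR), and the exact p was 0.0536 over 56 assignments, with 0.0179 the smallest possible.

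No member passed an adjusted p of 0.05, and edgeR called 0% of all genes at that threshold. At an unadjusted p under 0.05, edgeR placed 617 genes higher in MM (3.81%) and 1664 lower (10.3%), and DESeq2 called 31 higher and 176 lower after adjustment. Of the 9 members 1 was higher at the unadjusted threshold (Cd22) and 0 were lower. None of the 9 separated the groups without overlap, as 1.41% of all tested genes did. In bulk samples, fewer cells of a type and less RNA per cell cannot be told apart.

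**Figure D2:**
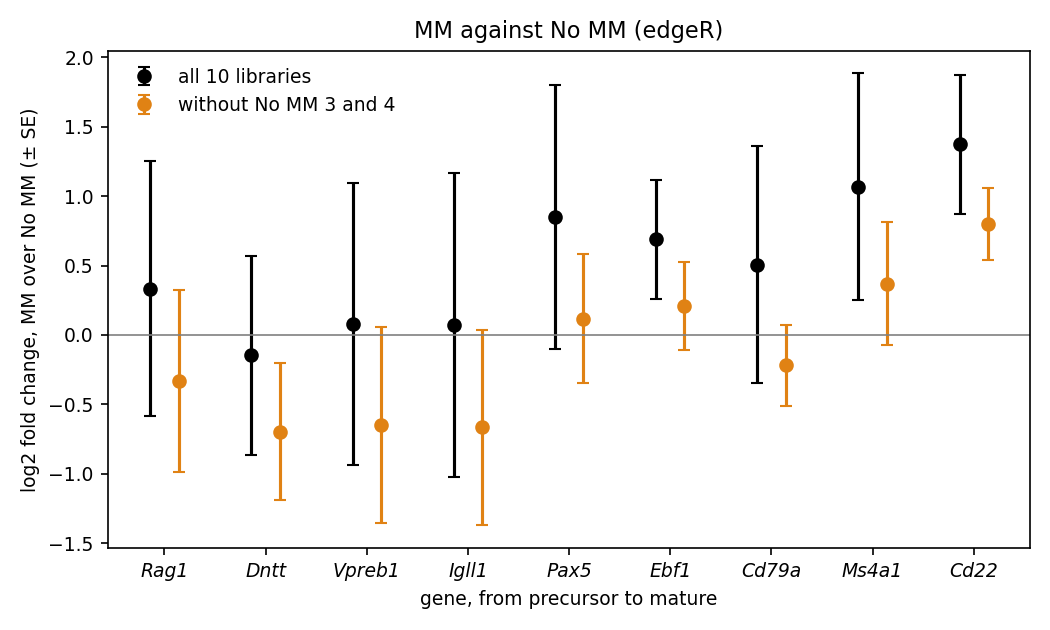
Log2 fold change of each gene, MM over No MM, with its standard error, from the fit to all 10 libraries and from the fit without No MM 3 and 4. With all libraries 8 of the 9 lie above 0, and without No MM 3 and 4 the 4 precursors and Cd79a lie below 0 while Ms4a1 and Cd22 stay above.

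Leaving out No MM 3 and 4 changed the sign of 4 members. In the remaining 3 No MM and 5 MM libraries, Rag1 stood at a log2 fold change of -0.33 ± 0.66, Dntt at -0.70 ± 0.49, Vpreb1 at -0.65 ± 0.70 and Igll1 at -0.67 ± 0.71. All 4 precursors then had lower fitted values in MM, while Ms4a1 stood at 0.37 ± 0.44 and Cd22 at 0.80. None of the 4 precursors or Ms4a1 passed the unadjusted threshold, which 2.51% of 16600 genes passed higher in MM and 3.37% lower, with 0% past the adjusted one. Pax5 stood at 0.12 ± 0.47 and Ebf1 at 0.21 ± 0.32.

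Precursor and mature genes were set against each other within each mouse as the mean log2 RPKM (CPM per kilobase of gene length) of Rag1, Dntt, Vpreb1 and Igll1 minus that of Ms4a1 and Cd22. This difference was -0.10, -1.07, -2.66, -0.62 and 0.10 in No MM mice 1 to 5. In MM mice 6 to 10 it was -4.08, -2.03, -1.61, -0.92 and -0.99. The mean of the mature genes therefore exceeded that of the precursor genes in every MM library and in all No MM libraries except No MM 5. This did not hold for each single gene. In No MM 1, Dntt (12.1 RPKM) and Vpreb1 (12.3) lay above Ms4a1 (6.06) and Cd22 (6.75). Igll1 (6.38) lay between those and Rag1 (1.33) below both. Any loss of Rag1 reads to B230118H07Rik would lower the precursor mean and was not measured. Of the precursor minus mature value, the group means were -0.87 ± 1.10 in No MM and -1.92 ± 1.29 in MM (SD, n = 5 each). Their difference of -1.05 was smaller than the pooled SD of 1.20. Without MM 6 the difference was -0.51. Against No MM 1, 2 and 5 alone, with a mean of -0.36 ± 0.62 (n = 3), the difference was -1.57. It is a description of chosen genes and was given no p-value.

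The precursor side varied more than the mature side. Mean log2 RPKM of the precursors ran from -0.13 in MM 6 to 3.14 in MM 9 across the 8 libraries other than No MM 3 and 4. That of the mature genes ran from 2.68 in No MM 1 to 4.06 in MM 9. MM 6 had the lowest precursor level of the 8 and the second highest mature level, at 3.95. MM 6 also had the lowest summed neutrophil markers of the 8 (9982 CPM against 22634 to 32303) and the lowest cell cycle markers of all 10 (788 CPM against 1452 to 2437), with the highest osteocyte markers (21058 CPM). The part of these in its precursor level was not tested.

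**Figure D3:**
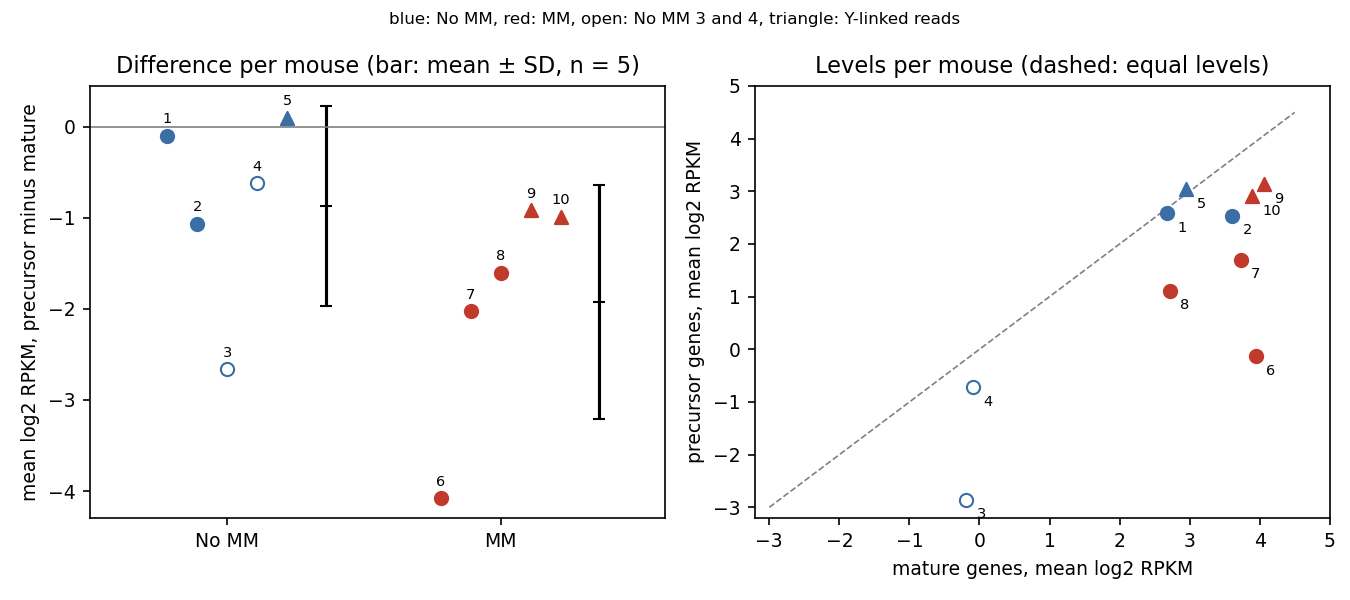
Left, mean log2 RPKM of the 4 precursor genes minus that of the 2 mature genes in each mouse, with bars for the mean ± SD of each group (n = 5). Right, the precursor mean against the mature mean in log2 RPKM, with a dashed line at equal levels (No MM blue, MM red, open No MM 3 and 4, triangles libraries with Y-linked reads). MM 6 has the lowest difference, -4.08, and No MM 5, at 0.10, is alone above the dashed line.

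Within MM, precursor levels also moved with the Y-linked reads. In the libraries with such reads the precursor mean was 3.05 in No MM 5 and 2.90 to 3.14 in MM 9 and 10. In those without, apart from No MM 3 and 4, it was 2.54 to 2.58 in No MM 1 and 2 and -0.13 to 1.70 in MM 6 to 8. Within these 5 libraries, a comparison chosen after seeing the data, the log2 fold changes were -1.25 for Rag1, -1.24 for Dntt, -1.87 for Vpreb1 and -1.85 for Igll1. Vpreb1, Igll1 and Cd79a were lower at the unadjusted threshold (unadjusted p = 0.0242, 0.0115 and 0.0114, edgeR), as 3.99% of 16553 genes were. None passed adjustment (adjusted p = 0.5657 for each), and 0.1 was the smallest p an exact permutation of 2 against 3 mice allows. Cd22 stood at 0.59 and Ms4a1 at 0.03. With Y-linked reads there was 1 No MM library, so the same comparison could not be tested there, and whether the difference between groups changes with the Y-linked reads was not tested.

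Per length, the highest and the lowest of the 9 genes were the same in each of the 8 libraries other than No MM 3 and 4. Cd79a was highest, with a mean log2 RPKM of 5.56 ± 0.43 (SD, n = 8), and Rag1 lowest, at 0.75 ± 1.14. Between them lay Ms4a1 (3.62 ± 0.74), Cd22 (3.28 ± 0.53), Dntt (2.86 ± 0.94), Vpreb1 (2.74 ± 1.31), Pax5 (2.52 ± 0.67), Ebf1 (2.43 ± 0.50) and Igll1 (2.09 ± 1.31). Neighbours from Ms4a1 to Igll1 differed by less than their SD, and their ranks changed between libraries. The place of Rag1 carries the limit that its reads may have been split with B230118H07Rik, which would lower its level per length.

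The precursor genes kept their proportions to each other more closely than to the mature genes. Of the 36 pairs of members, Vpreb1 and Igll1 had the smallest SD of the log2 ratio over the 8 libraries, 0.23, and Igll1 reads were 1.17 to 1.81 times those of Vpreb1. The 6 precursor pairs had SDs of 0.23 to 0.65, and the 8 pairs of a precursor with a mature gene 1.18 to 1.57. Ms4a1 and Cd22 had an SD of 0.59, and Pax5 and Cd79a 0.45. Ebf1, a B identity gene, had like SDs with Cd22 (0.42), Ms4a1 (0.43) and Pax5 (0.43), and 0.53 with Cd79a. These are descriptions of libraries that share depth and cell makeup.

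**Figure D4:**
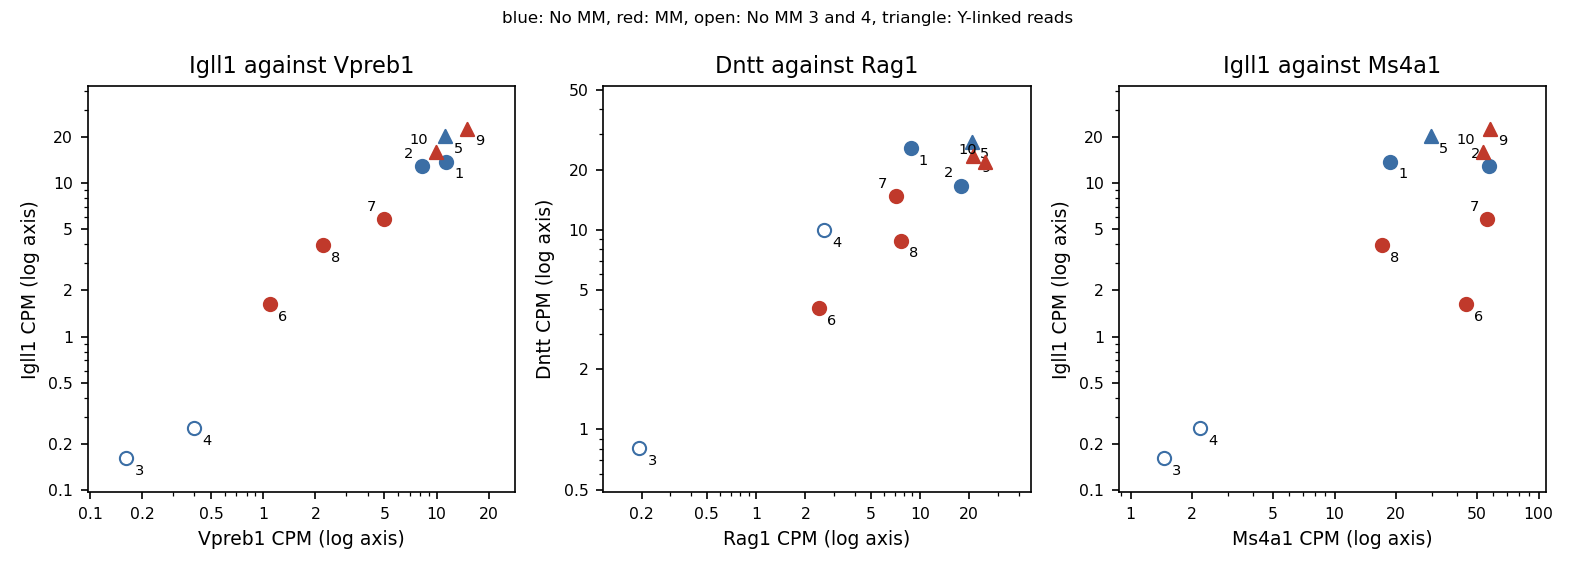
CPM of Igll1 against Vpreb1, Dntt against Rag1 and Igll1 against Ms4a1 on log axes, 1 point per mouse with its number (No MM blue, MM red, open No MM 3 and 4, triangles libraries with Y-linked reads). Igll1 follows Vpreb1 closely, while Igll1 spreads at like Ms4a1 levels, from 1.63 CPM in MM 6 to 22.5 CPM in MM 9.

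The members were not equally low in No MM 3 and 4. Relative to the median of No MM 1, 2 and 5, Pax5 was 47.7-fold lower in No MM 3 and 50.9-fold lower in No MM 4, and Cd79a was 28.3-fold and 42.2-fold lower. Ebf1 was only 3.20-fold and 4.43-fold lower and Cd22 4.35-fold and 5.68-fold. Ebf1 reads were therefore 56.2 and 43.4 times Pax5 reads there, against 2.27 to 5.62 times in the other 8 libraries. The precursors parted in No MM 4, where Dntt was 2.57-fold and Rag1 6.85-fold lower but Igll1 54.3-fold, so that Dntt reads were 39.3 times Igll1 reads (275 against 7), compared with 1.04 to 2.52 times in the 8 libraries. In No MM 3 Dntt was 31.8-fold and Rag1 92.4-fold lower. Rag1 and Dntt also act in thymocytes, where Ptcra, the pre-T receptor chain, is a marker. Ptcra had 12 reads in No MM 4, 2 in No MM 3 and 0 to 1 elsewhere. The 10 T-cell markers summed to 41.5 CPM in No MM 3 and 61.8 in No MM 4, against 77.0 to 133.5. The part of T-lineage cells in the Rag1 and Dntt reads was not tested.

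Other genes were read from lists named by stage. Of 12 other precursor genes, 1 was higher in MM at the unadjusted threshold and 0 lower, with a median log2 fold change of 0.19 against -0.03 for all tested genes and -0.11 without No MM 3 and 4. The higher gene was Il7r, the receptor for interleukin 7 (1.08 ± 0.42, unadjusted p = 0.0245, adjusted p = 0.315, edgeR), which was named after its value was seen and stood at 0.57 without No MM 3 and 4 (unadjusted p = 0.0343, adjusted p = 0.6435, edgeR). The most abundant were Smarca4, a chromatin remodeler, at -0.10, Cd93 at 0.14, Myb at 0.66 and Sox4 at 0.23, and none of them passed. In the fit without No MM 3 and 4 these stood at -0.21, -0.02, 0.33 and -0.22 in the same order, so Cd93 and Sox4 changed sign. Rag2, which acts with Rag1, had 54, 94, 0, 20 and 179 reads in No MM mice. In MM mice it had 17, 50, 58, 126 and 143. Its reads were fewest in No MM 3, No MM 4 and MM 6, where Rag1 was lowest as well. Vpreb3 likewise was lowest in No MM 3, No MM 4 and MM 6, at 1.36, 0.907 and 5.51 CPM against 8.70 to 30.6 elsewhere. The whole list summed to 304.8 and 279.4 CPM in No MM 3 and 4, against 348.7 to 511.2 elsewhere, a smaller drop than that of Vpreb3. In the fit without No MM 3 and 4, 5 of the 12 genes were above 0 and 7 below. Rag2 stood at -0.56, Vpreb2 at -1.09, Vpreb3 at -0.81 and Lef1 at -0.56 there, and none of these passed the unadjusted threshold.

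Of 11 other mature B genes that were in the table, 9 had a positive and 2 a negative fold change, with a median of 0.98. Without No MM 3 and 4, 10 of 11 were positive, with a median of 0.38 against -0.02 for all genes, and 0 passed the unadjusted threshold. With all libraries Siglecg, an inhibitory receptor of the same family as Cd22, passed it (1.32 ± 0.53, unadjusted p = 0.0292, adjusted p = 0.323, edgeR). Siglecg was lowest in No MM 3 and 4, at 4.23 and 7.37 CPM, and in MM it ran from 27.1 to 61.2 CPM, a range that No MM 5 reached at 35.5 CPM. Siglecg stood at 0.79 without No MM 3 and 4 and no longer passed (unadjusted p = 0.0859, edgeR). The other abundant genes of the list were Pou2f2 at 0.35, Cd55 at 0.02 and H2-DMb2, a chaperone of class II loading, at 1.02, and without No MM 3 and 4 they stood at 1.58, 0.26 and 0.38. Pou2f2 had 161.5 CPM in MM 8 against 20.7 to 28.2 in the other MM libraries, and 61.6 and 93.5 CPM in No MM 3 and 4 against 12.9 to 20.1 in the other No MM libraries.

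Of 16 other B-lineage genes, 1 was higher and 2 were lower at the unadjusted threshold, with a median of 0.20 that became -0.00 without No MM 3 and 4. Cd37 was the higher gene (0.84), and Pou2af1 (-3.87) and Blnk (-2.13) were the lower ones. Pou2af1, a coactivator that plasma cells also use, had 1934 and 2339 CPM in No MM 3 and 4 against 31.5 to 90.6 in the other 8. Without these libraries Pou2af1 stood at -0.14 and Blnk at -0.04, and Cd37 stood at 0.47 and no longer passed (unadjusted p = 0.0552, edgeR). Ighm, the heavy chain of IgM, stood at -0.64, Tcf3, which encodes E2A, at -0.17 and Cd79b, the partner of Cd79a, at -0.66. The 2 genes of this list past the unadjusted threshold without No MM 3 and 4 were Ighm, lower at -1.36 (unadjusted p = 0.0340, edgeR), and Ikzf3, a lymphoid transcription factor, higher at 0.64 (unadjusted p = 0.0144, edgeR), which was named after its value was seen. Ighm stood at 16220 CPM in No MM 2, against 2265 to 4403 in the other 7 libraries of that fit, and Ikzf3 at 165 and 224 CPM in No MM 3 and 4, against 16.3 to 40.6 in the other 8. Tcf3 stood at -0.26 in that fit. Cd79b therefore differed in sign from Cd79a with all libraries (0.51), and without No MM 3 and 4 both were below 0, at -0.19 and -0.22.

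The plasma cell markers moved with No MM 3 and 4. All 9 in the table were lower in MM at the unadjusted threshold, with a median log2 fold change of -2.11, and they included Xbp1 (-2.11), Irf4 (-3.68), Sdc1 (-1.97) and Creld2 (-2.41). Without No MM 3 and 4 the median was -0.44, Irf4 turned to 0.08 and Prdm1 to 0.07, the other 7 stayed below 0, and 1 of 9 passed, Mzb1 (-1.33, unadjusted p = 0.0111, edgeR). None passed adjustment in either fit.

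Genes whose level followed the members most closely were found from log2 CPM centred within each group, as a description. Over all 10 libraries the mean of the precursors was followed most closely by Tm7sf3 (Pearson r = 0.99), Gm10282, Tmem8, Slc22a4 and Aqp9, all at 0.98 or above. The mean of Ms4a1 and Cd22 was followed by Pde4d, Bhlhb9, Msrb2 and H2-DMb2, likewise at 0.98 or above. Of the genes named here only Tm7sf3 was again among the nearest 5 over the 8 libraries without No MM 3 and 4, and the others were not.

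Positions are as the table gives them, and its build is not given in the sources used here. Start and end were the same as in the GENCODE annotation of GRCm38 for 6 of the 9 genes and differed for Dntt, Vpreb1 and Pax5. Igll1 (chr16:16860671-16863985) and Vpreb1 (chr16:16868402-16870843) are neighbours on the minus strand, and the latter overlaps Top3b on the opposite strand. Rag1 lies at chr2:101638282-101649501 (minus), Dntt at chr19:41029275-41059523 (plus), Pax5 at chr4:44531145-44710487 (minus) and Ebf1 at chr11:44617317-45008091 (plus). Cd79a (chr7:24897381-24902197, plus) and Cd22 (chr7:30865402-30880342, minus) share a chromosome, and Ms4a1 lies at chr19:11249675-11266241 (minus). Vpreb1, Pax5 and Cd22 have genes on the opposite strand across exons. Since the strand setting of the counting is not given, reads of these pairs may not be told apart. Of those opposite genes only Top3b was in the table, with 952 to 2222 reads per library.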

How the data were processed

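RNA-seq was performed on osteocytes of 5 No MM and 5 MM mice (1 library per mouse), using a stranded total RNA kit (TruSeq) and paired ends. The submitters' processing notes name FastQC 0.11.5 and STAR; the counting program, build and annotation are not given in the sources used here. The authors deposited read counts per gene, whole and not normalized, which were used here. The authors also deposited a normalized signal (counts over a size factor), FPKM, and columns from their own comparison (log2 fold changes, p-values), none of which were used. Samples were grouped by the labels, which pair no mice, so the p-values measure the spread between mice.

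Counts were analyzed in R 4.3.3 with edgeR 4.0.16 (filterByExpr, TMM, quasi-likelihood test of MM against No MM, Benjamini-Hochberg over 16186 genes, threshold 0.05). CPM used TMM-scaled library sizes (factors 0.7225 to 1.14), RPKM is CPM per kilobase of the table's gene length, and log2 CPM used a prior count of 2. Single genes were also compared by two-sided exact permutation of log2 CPM. The scripts were tested on simulated data. Depth was 31099174 to 39466332 reads. Alternatives were DESeq2 1.42.0, RLE and upper quartile scaling, no filter, at least 10 reads in every library, immunoglobulin genes left out, No MM 3 and 4 left out, and each mouse left out. Those on Y-linked reads, and the promoter motifs, were chosen after seeing the data. No MM 3 and 4 were left out because they were already known to stand apart by their immunoglobulin reads, so that choice also rested on these data. The members and lists were chosen with earlier results of these data known. Named genes were the members, up to 4 genes of highest mean CPM per B-lineage and plasma cell list, and the 5 genes most correlated with each stage, of which 1 is not reported here; genes past the unadjusted threshold were added after their values were seen. Promoter sequences are from RefSeq (8 of 9 members matched; Ms4a1 had no entry).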

Additional observations from a re-analysis of the deposited data

How the results depend on the processing

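No member passed an adjusted p of 0.05 (edgeR) under any of the 20 alternatives, DESeq2 included. Cd22, Ms4a1 and Ebf1 kept a positive log2 fold change in all 20 (0.59 to 1.63, 0.03 to 1.80 and 0.10 to 0.98), and for Cd22 the adjusted p ran from 0.129 to 0.656. The precursor minus mature difference between groups stayed negative, from -1.99 (the 5 libraries without Y-linked reads and without No MM 3 and 4) to -0.51 (without MM 6), within 1 pooled SD of its main value. Without No MM 3 and 4 together, Rag1 turned to -0.33, Vpreb1 to -0.65, Igll1 to -0.67 and Cd79a to -0.22, and 560 of all genes were lower at the unadjusted threshold. With a term for Y-linked reads, Rag1 turned to -0.22, Vpreb1 to -0.60 and Igll1 to -0.63, and 841 genes were lower. With only the 7 libraries without Y-linked reads, they turned to -0.37, -0.87 and -0.83 in the same order, and 0 members were higher at the unadjusted threshold. With those libraries and without No MM 3 and 4, Rag1 turned to -1.25, Vpreb1 to -1.87, Igll1 to -1.85, Pax5 to -0.65 and Cd79a to -0.79, with 3 members lower, 0 higher and 661 of all genes lower. DESeq2 called 31 genes higher and 176 lower after adjustment and 968 higher unadjusted. The causes of these changes were not tested.

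With each mouse left out in turn, log2 fold changes ran from -0.073 to 0.78 for Rag1, -0.46 to 0.13 for Dntt, -0.47 to 0.41 for Vpreb1 and -0.47 to 0.56 for Igll1. Dntt turned positive without No MM 1 (0.08), No MM 5 (0.13) or MM 6 (0.09), and Rag1 turned negative without MM 10 (-0.073). Vpreb1 and Igll1 turned negative without No MM 3, No MM 4, MM 9 or MM 10. Members higher at the unadjusted threshold numbered 1 to 2, the second being found without No MM 2, all genes higher 291 to 1276 and all genes lower 939 to 2376. With at least 10 reads in every library, Rag1, Vpreb1, Igll1 and Pax5 were not tested. Few reads in No MM 3 and 4, 5 to 11 for Vpreb1 and Igll1, limit those values. No paired analysis was run because the labels pair no mice. The authors call their own differential analysis paired, and its pairs are not given in the sources used here.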

Other observations

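Dendritic cell markers, which include genes of the plasmacytoid branch that shares Rag1 and Dntt expression with early lymphoid cells, were read beside the members. All 8 had a positive log2 fold change in MM, with a median of 0.73 against -0.03 for all tested genes, and 2 were higher at an unadjusted p under 0.05 (edgeR), Clec9a, a receptor of cross-presenting dendritic cells (1.28 ± 0.33, unadjusted p = 0.00277), and Zbtb46 (0.43 ± 0.19, unadjusted p = 0.0453), both named after their values were seen. Without No MM 3 and 4, 7 of 8 were positive, with a median of 0.53. Clec9a stood at 1.26 (unadjusted p = 0.0102, edgeR), Zbtb46 at 0.25 and no longer passed (unadjusted p = 0.205, edgeR), and Itgax passed at 0.98 (unadjusted p = 0.0480, edgeR), with 75.1 CPM in MM 8 against 19.7 to 28.1 in the other MM libraries. None passed adjustment in either fit. Of the plasmacytoid genes, Siglech stood at 0.75 with all libraries and at 0.15 without No MM 3 and 4. Ccr9 stood at 0.22 and -0.07 in the same order. Neither gene passed the unadjusted threshold in either fit. Batf3 stood at 38.8 CPM in MM 8 against 1.59 to 4.17 in the other libraries, and Cd72, a B-cell receptor partner, at 305.7 CPM in MM 8 against 33.9 to 61.9.

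Markers of thymocytes and T cells had 8 of 8 tested genes with positive fold changes, a median of 0.39 and none past the unadjusted threshold, and a median of 0.10 without No MM 3 and 4. Without these libraries, all 9 neutrophil, all 7 erythroid and all 8 osteocyte and osteoblast markers had negative fold changes in MM. Their medians were -0.35, -0.94 and -0.56, against -0.02 for all tested genes, and none of these markers passed the unadjusted threshold. With all libraries their medians were 0.18, -0.25 and 0.13, and the cell cycle markers had a median of -0.03 that became -0.31.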
